A study of Mus musculus with 20 samples.

Results

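The genes described here are the chemokines, the chemokine receptors and the atypical chemokine receptors of the mouse, chosen by symbol alone: every gene named Ccl or Cxcl with a number, *Cx3cl1*, *Xcl1*, and the receptors named Ccr, Cxcr, Cx3cr1, Xcr1 and Ackr. They were 69 of the 54532 genes in the count table and carried 64 distinct symbols, and 7 of them were copies on unplaced scaffolds. RNA-seq had been performed on condylar heads of the temporomandibular joint (TMJ), the hinge of the lower jaw, taken with part of the subchondral bone. All animals were Loxl2 fl/fl and carried a tamoxifen-inducible Cre under the aggrecan promoter (Acan-Cre ERT2), which is active in cartilage cells. The 8 control libraries came from vehicle-injected mice, by the study's account 4 males and 4 females. The 12 libraries labelled *Loxl2* knockout came from mice injected with tamoxifen at 75 mg per kg, by the same account 6 males and 6 females. Injections began at 6 months of age with 5 daily doses followed by monthly doses, and joints were collected 4 months after the first. The drug and the deletion cannot be told apart in this design, the sex of a single library was not given, and p-values measure the spread between these samples.

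Chemokines are small secreted proteins that steer migrating leukocytes. They are sorted into CC, CXC, CX3C and XC families by the spacing of their first cysteines, and most act through G protein-coupled receptors of the matching family. Atypical receptors bind chemokines without G protein signalling and mostly take them up for degradation, which shapes the local gradients. In joints and bone the system is known for placing monocytes, osteoclast precursors, lymphocytes and mast cells.

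The promoters of the members that rose are shown first, since several of the results below turn on these genes. For 6 of the 7 called members RefSeq (build GRCm38.p6) gave a start site, and the 250 bases before it are printed on the strand of the gene, 5′ to 3′; *Cxcl16* is named only. *Ccr1* lies on the minus strand (chr9:123968693-123968942), as do *Ccl9* (chr11:83578637-83578886), *Ackr4* (chr9:104126644-104126893) and *Cx3cr1* (chr9:120068297-120068546). *Ccr3* (chr9:124021721-124021970) and *Ccl8* (chr11:82114935-82115184) lie on the plus strand. Capitals mark matches on either strand to the NF-kB consensus and to the AP-1 site TGANTCA, both of which are bound by transcription factors active in inflammation.
Ccr1: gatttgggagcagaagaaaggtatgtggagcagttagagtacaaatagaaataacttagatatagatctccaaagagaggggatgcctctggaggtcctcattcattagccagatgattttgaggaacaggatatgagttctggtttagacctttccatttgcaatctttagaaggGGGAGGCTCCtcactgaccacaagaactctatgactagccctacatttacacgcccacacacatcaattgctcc
Ccl9: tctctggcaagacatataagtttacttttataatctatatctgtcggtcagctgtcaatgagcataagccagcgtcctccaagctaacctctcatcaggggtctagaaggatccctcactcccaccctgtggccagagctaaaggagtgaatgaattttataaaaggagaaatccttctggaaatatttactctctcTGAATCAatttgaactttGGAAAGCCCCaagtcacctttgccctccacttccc
Ackr4: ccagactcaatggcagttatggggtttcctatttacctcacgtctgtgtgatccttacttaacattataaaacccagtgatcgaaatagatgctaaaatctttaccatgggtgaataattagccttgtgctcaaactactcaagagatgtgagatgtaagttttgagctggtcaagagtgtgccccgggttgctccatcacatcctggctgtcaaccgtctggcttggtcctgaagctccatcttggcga
Ccr3: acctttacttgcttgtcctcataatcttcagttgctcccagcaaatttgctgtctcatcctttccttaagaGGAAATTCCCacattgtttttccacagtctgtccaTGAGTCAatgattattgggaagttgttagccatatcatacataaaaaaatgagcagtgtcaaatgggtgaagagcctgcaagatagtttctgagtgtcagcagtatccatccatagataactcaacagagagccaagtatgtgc
Cx3cr1: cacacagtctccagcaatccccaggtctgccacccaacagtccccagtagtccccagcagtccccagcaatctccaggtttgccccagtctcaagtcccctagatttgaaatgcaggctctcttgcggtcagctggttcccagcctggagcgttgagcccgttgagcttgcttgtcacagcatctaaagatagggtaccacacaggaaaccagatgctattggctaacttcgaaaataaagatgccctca
Ccl8: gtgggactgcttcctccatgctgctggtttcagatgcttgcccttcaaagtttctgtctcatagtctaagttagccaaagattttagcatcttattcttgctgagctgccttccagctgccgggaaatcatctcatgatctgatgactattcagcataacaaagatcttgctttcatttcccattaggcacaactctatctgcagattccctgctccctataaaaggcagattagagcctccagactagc

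An NF-kB match stood in 3 of these 6 stretches (*Ccr1*, *Ccl9* and *Ccr3*) and an AP-1 match in 2 (*Ccl9* and *Ccr3*). Among the 14 tested members with an entry that did not pass the test, 2 held an NF-kB match (*Ackr2*, *Cxcl10*) and 2 an AP-1 match (*Ccl27a*, *Cxcl10*). Among the 25 untested members with an entry, 6 held an NF-kB match (*Ccl1*, *Ccl20*, *Ccr6*, *Cxcl1*, *Cxcl2* and *Cxcl3*) and 2 an AP-1 match. Of all 32851 promoters of this length, 7.25% held the NF-kB consensus and 6.75% the AP-1 site. These shares are per promoter, while a member with several entries, such as *Ccl27a*, was counted if any entry held a match. A match describes letters and is not evidence of a bound factor.

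The libraries held 11153820 to 27045668 counts, so that 3 counts corresponded to 0.111 to 0.269 CPM, counts scaled to library size. *Loxl2* itself, the targeted gene, showed no decrease in its RNA counts. Its mean was 64.4 CPM with an SD of 30.8 in the 8 controls, and 100 CPM with an SD of 26.8 in the 12 libraries labelled knockout, a difference of mean log2 CPM of 0.77 (exact two-sided permutation p = 0.0272), which was no longer past 0.05 without control replicate 6 (p = 0.0649) or control replicate 8 (p = 0.0825). By the edgeR test used for the other genes *Loxl2* was not called (log2 fold change 0.64, SE 0.28, adjusted p = 0.101). The study reported less LOXL2 protein in the knockout mice by immunostaining. Control replicate 8 stood apart: a list of chondrocyte genes summed to 110 CPM there and to at least 1595 CPM in every other control, and its skeletal muscle genes were the highest of all libraries. The libraries labelled knockout held more of several cell types' transcripts. All 10 osteoclast markers were higher (summed level 183 to 1483 CPM in control and 664 to 8078 CPM in the other group), though *Calcr* in only 9 of 20 fits with 1 library left out. So were 8 of 12 macrophage markers and 5 of 7 tested mast cell markers, while 0 of 10 endothelial markers passed the test (0 at an unadjusted p under 0.05 by edgeR, 0 by DESeq2). Over all tested genes 12% were called higher and 11% lower. The osteoblast and osteocyte list had 5 of 10 genes higher (median sum 4518 and 22411 CPM) and the synovial fibroblast list 5 of 10, while 2 of 10 skeletal muscle genes were lower (median sum 72503 and 57027 CPM). Of the tested genes, 2 of 10 were higher in the chondrocyte list, 1 of 9 in the neutrophil list, 1 of 9 in the dendritic cell list and 1 of 7 in the B cell list. In the salivary gland list 2 of 4 were higher, with medians of 89.2 CPM in control and 47.9 CPM in the other group and 3628 CPM in knockout replicate 9. The part of these lists in the members' differences was not tested. In bulk tissue more cells of a type and more RNA per cell cannot be told apart.

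Of the 69 members, 7 had no count in any library, 32 reached a mean of at least 0.5 CPM, and 29 passed the filter of edgeR on low counts and were tested with all other genes. By edgeR's quasi-likelihood test, 7 of the 29 were higher in the libraries labelled knockout (24.1%, against 12% of all 15984 tested genes called higher) and 0 were lower (against 11% of all tested genes called lower). At an unadjusted p under 0.05, 9 members were higher and 1, *Ccl27a*, was lower. DESeq2 called 0 of them lower as well, against 10.7% of all genes it tested, and 11.6% of those were higher. With the low-count filter off 4.86% of genes were higher and 3.87% lower, with a filter at a mean of 0.5 CPM 12% and 11%, and in a fit blocked by replicate number 7.06% and 4.41%. The fold change was positive for 25 of the 29, with a median of 0.56 on the log2 scale against -0.02 over all tested genes, of which 48.1% were positive. These figures describe the members that passed the filter. A gene could pass through the larger group alone, and *Ccr3* exceeded the filter level of 0.546 CPM in 1 of 8 control libraries and 9 of 12 others. *Ccl8* did so in 3 and 11, *Ccl2* in 2 and 11, the scaffold copy of *Ccl21a* in 2 and 9, and *Ccl19-ps3* in 2 and 8. In none of the 29 were the groups fully separate, and the share of all tested genes with separate groups was not counted. Without control replicate 8 the count of members called higher was again 7, with *Ccl7* entering and *Cxcl16* leaving.

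**Figure D1:**
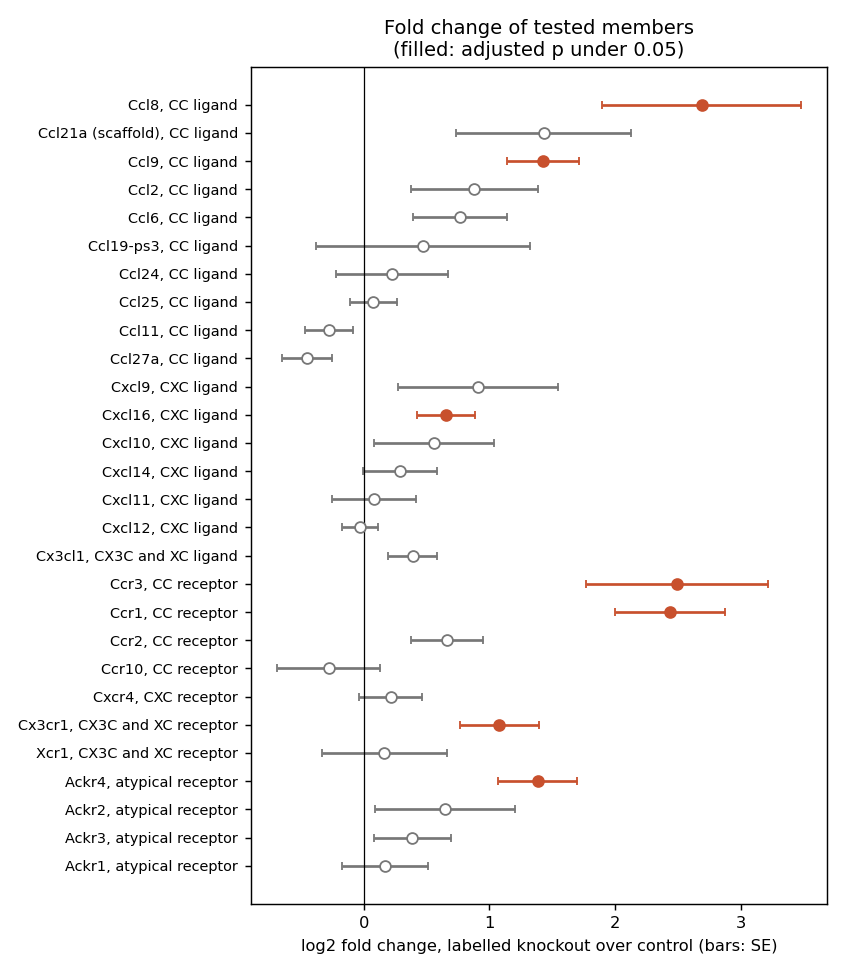
Log2 fold change of 28 tested members, labelled knockout over control, ordered by role, with bars for the standard error and filled points for an adjusted p under 0.05 (edgeR). The 7 filled points all lie to the right of 0, and 4 of the 28 points lie to its left.

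The most abundant members per length were not those that rose. *Cxcl12*, which retains haematopoietic cells in bone marrow niches, had a mean of 20.2 CPM per kb of exon, *Ackr3*, an atypical receptor that scavenges it, 19.2, *Cxcl14*, a homeostatic chemokine of epithelia and stroma, 17.2, and *Ccl11*, the eosinophil chemoattractant eotaxin, 10.5. None of the 4 passed the test. Next came the pseudogene *Ccl19-ps3* at 5.63 CPM per kb, whose reads may include those of other *Ccl19* copies, which was not tested, and *Ccl8* at 5.16 CPM per kb. The level of *Ccl8* was 1.21 CPM per kb in control and 7.80 in the other group, and its mean over all libraries was 2.78 without knockout replicate 6. At the other end, *Ccr3* and *Xcr1*, a receptor of cross-presenting dendritic cells, were at 0.258 and 0.0957 CPM per kb.

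**Figure D2:**
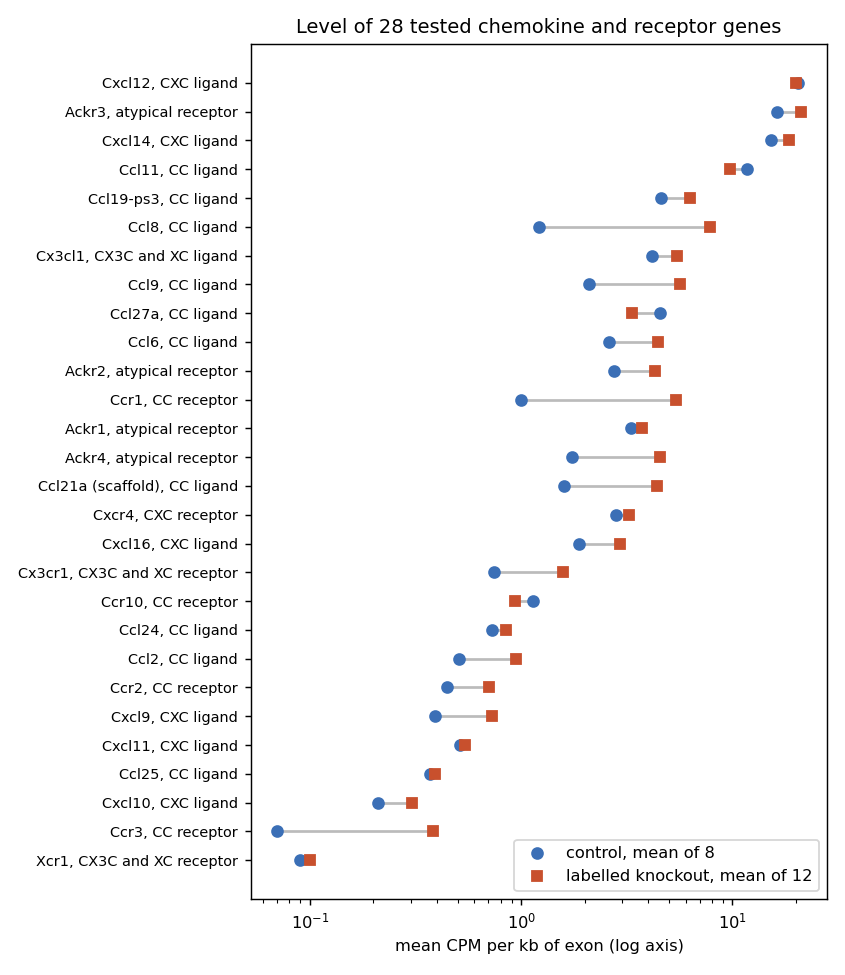
Mean CPM per kb of exon (log axis) of 28 tested members in the 8 control libraries (circles) and the 12 libraries labelled knockout (squares). *Cxcl12*, *Ackr3*, *Cxcl14* and *Ccl11* lead in both groups, and the widest gaps between groups are those of *Ccl8*, *Ccr1* and *Ccr3*.

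Among the CC ligands, 10 of 32 members were tested and 2 rose. *Ccl9*, a ligand of Ccr1 made by macrophages and osteoclasts, ran from 3.1 CPM (median 5.74) to 11.6 CPM in control and from 8.63 CPM (median 17.2) to 35.4 CPM in the libraries labelled knockout. All 12 of these exceeded the control median, and 9 exceeded the highest control, which was replicate 5. This gave a log2 fold change of 1.42 (SE 0.29, adjusted p = 0.00253), and the call held in all 20 fits with 1 library left out, between 1.28 and 1.60.

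*Ccl8*, a ligand of Ccr8 in the mouse that attracts monocytes and activated T cells, ran from 0.224 CPM (median 0.471) to 1.85 CPM in control and from 0.354 CPM (median 1.44) to 25.8 CPM in the other group. The highest 2 libraries were knockout replicate 6 at 25.8 CPM and knockout replicate 1 at 8.09 CPM, and 8 of the 12 lay within the control range. By the fit its log2 fold change was 2.69 (SE 0.79, adjusted p = 0.0189). Without knockout replicate 6 it was 1.70 (adjusted p = 0.0396), and it was 1.62 in the Wald test of DESeq2 (adjusted p = 0.0137). Knockout replicate 6 also held the highest dendritic cell sum, 673 CPM, against 98.7 to 282 CPM in the other 11, and the highest *Cxcl9* and *Cxcl16*. The part of these markers in the result was not tested.

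The other tested CC ligands did not pass. *Ccl27a*, a skin chemokine that attracts Ccr10-bearing T cells, was the one nearest to a lower call: it ran from 7.57 CPM (median 10.7) to 14.9 CPM in control and from 5.09 CPM (median 6.23) to 13.1 CPM in the libraries labelled knockout. It split the 12 into 8 libraries at 5.09 to 7.63 CPM and 4 at 10.7 to 13.1 CPM, replicates 3, 5, 11 and 12. Its log2 fold change was -0.45 (SE 0.20, adjusted p = 0.109), and it was called lower without knockout replicate 12 (-0.53, adjusted p = 0.0472). *Ccl6*, a further macrophage ligand of Ccr1, ran from 2.17 CPM (median 4.67) to 7.25 CPM and from 2.44 CPM (median 6.88) to 22.9 CPM, with a log2 fold change of 0.77 (SE 0.37, adjusted p = 0.14). Its highest library, knockout replicate 7, was also the highest for *Ccl9*. *Ccl2*, the main attractant of inflammatory monocytes, ran from 0.298 CPM (median 0.395) to 1.7 CPM and from 0 CPM (median 0.854) to 2.27 CPM, with a log2 fold change of 0.88 (SE 0.51, adjusted p = 0.211). The control library at 1.7 CPM was replicate 2, and 11 of the 12 libraries labelled knockout were above the control median.

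*Ccl11* ran from 8.01 CPM (median 12) to 19 CPM in control and from 5.48 CPM (median 10.5) to 16.4 CPM in the other group, with a log2 fold change of -0.27 (SE 0.19, adjusted p = 0.309). The groups overlapped over nearly their whole range. *Ccl24*, another eotaxin (0.22, SE 0.45, adjusted p = 0.752), and *Ccl25*, a thymic and intestinal chemokine (0.08, SE 0.19, adjusted p = 0.801), had small log2 fold changes. A scaffold copy of *Ccl21a*, a lymph node chemokine, ran from 0 CPM (median 0.308) to 2.27 CPM in control and from 0.101 CPM (median 1.24) to 6.91 CPM in the other group (1.43, SE 0.70, adjusted p = 0.138), and was called without control replicate 3 (2.07, adjusted p = 0.0489). *Ccl19-ps3* ran from 0.0765 CPM (median 0.379) to 9.37 CPM and from 0 CPM (median 1.56) to 6.39 CPM (0.47, SE 0.85, adjusted p = 0.725), and the one control library at 9.37 CPM, replicate 7, decided its value: without it the log2 fold change was 2.45 (adjusted p = 0.0327). Reads of both genes may have been divided among copies, as the handling of reads with several positions was not given.

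Of the 13 CXC ligands, 6 were tested and 1 rose. *Cxcl16*, a membrane-bound chemokine and scavenger receptor of macrophages, ran from 2.45 CPM (median 5.42) to 8.15 CPM in control and from 4.7 CPM (median 8.01) to 17 CPM in the libraries labelled knockout. The log2 fold change was 0.65 (SE 0.23, adjusted p = 0.0459), and 11 of the 12 were above the control median. This call was fragile: it held in 8 of 20 fits with 1 library left out, and it was lost without control replicates 1, 3, 6, 7 or 8 or knockout replicates 1, 2, 4, 6, 7, 8 or 9 (adjusted p from 0.0502 to 0.0855). Among these were control replicate 8 (0.55 without it, adjusted p = 0.0855), which was its lowest library, and knockout replicate 6, its highest (0.53, adjusted p = 0.0776). Its exons share 552 bases (18.3%) with *Zmynd15* on the other strand, a gene that did not pass the test (0.12, adjusted p = 0.805).

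*Cxcl12* was nearly level, from 120 CPM (median 164) to 247 CPM in control and from 110 CPM (median 159) to 246 CPM in the other group. Its log2 fold change was -0.03 (SE 0.14, adjusted p = 0.908), whose sign turned under some settings, among them scaling by library totals alone (0.09). *Cxcl14* ran from 12.9 CPM (median 25.2) to 47.8 CPM and from 15.2 CPM (median 30.9) to 59.6 CPM (0.29, SE 0.30, adjusted p = 0.504). The genes of the interferon-induced ligands of Cxcr3 lie side by side on chromosome 5 and none was called: the log2 fold change was 0.91 for *Cxcl9* (SE 0.63, adjusted p = 0.311), 0.56 for *Cxcl10* (SE 0.48, adjusted p = 0.417) and 0.08 for *Cxcl11* (SE 0.34, adjusted p = 0.884), which turned to -0.04 without control replicate 4 or 8. The gene annotation lists *Cxcl11* as a polymorphic pseudogene. The exons of *Cxcl10* share 133 bases (5.91%) with *Art3* on the other strand, a gene at a mean of 113 CPM that was lower in the libraries labelled knockout (-0.64, SE 0.16, adjusted p = 0.00761). *Cxcl9* was at 10.1 CPM in knockout replicate 6 and 6.12 CPM in knockout replicate 2, and its log2 fold change was 0.34 without replicate 6.

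*Cx3cl1*, the membrane-tethered chemokine fractalkine, ran from 5.81 CPM (median 16.2) to 22.7 CPM in control and from 15.1 CPM (median 19.3) to 32.5 CPM in the libraries labelled knockout. It did not pass (0.39, SE 0.20, adjusted p = 0.153), and its lowest library by far was control replicate 8, without which the log2 fold change was 0.28. *Xcl1*, the ligand of Xcr1, had 15 counts in all libraries together and was not tested.

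Of the 10 CC receptors, 5 were tested and 2 rose, and both lie in a cluster of 7 receptor genes on chromosome 9. *Ccr1*, the receptor of Ccl9 and of several inflammatory CC ligands on myeloid cells and osteoclast precursors, had the smallest p among the members. It ran from 0.536 CPM (median 2.57) to 8.09 CPM in control and from 4.1 CPM (median 14) to 32.9 CPM in the libraries labelled knockout. The 8.09 CPM of control replicate 5 was the one control value inside the other group's range, and 10 of 12 libraries labelled knockout exceeded it. The log2 fold change was 2.44 (SE 0.44, adjusted p = 0.00144), between 2.28 and 2.87 with 1 library left out and 2.30 without control replicate 8.

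*Ccr3*, the eotaxin receptor of eosinophils and mast cells, was scarce, from 0 CPM (median 0.0892) to 1.09 CPM in control and from 0.142 CPM (median 0.844) to 3.24 CPM in the other group. In control, 3 of 8 libraries had no count, against 0 of 12, and 5 of 12 exceeded the highest control, again replicate 5. The log2 fold change was 2.49 (SE 0.73, adjusted p = 0.0179) and 3.55 without control replicate 5 (adjusted p = 0.00256).

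Neither of the following CC receptors passed. *Ccr2*, the receptor of Ccl2 on inflammatory monocytes, ran from 1.86 CPM (median 2.49) to 7.06 CPM in control and from 2.29 CPM (median 4.05) to 10.7 CPM in the other group (0.66, SE 0.29, adjusted p = 0.0988). Control replicate 3 held the 7.06 CPM, and without it *Ccr2* was called higher (0.97, adjusted p = 0.0152). *Ccr10*, the receptor of Ccl27a, had a log2 fold change of -0.28 (SE 0.41, adjusted p = 0.659).

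Of the CXC receptors 1 of 6 was tested. *Cxcr4*, the signalling receptor of Cxcl12, had means of 5.07 CPM (SD 1.82) in the 8 controls and 5.88 CPM (SD 2.25) in the other 12, with a log2 fold change of 0.22 (SE 0.25, adjusted p = 0.559). *Cx3cr1*, the fractalkine receptor of monocytes and resident macrophages, rose. It ran from 0.765 CPM (median 3.22) to 6.66 CPM in control and from 2.83 CPM (median 6.68) to 11.5 CPM in the libraries labelled knockout. The groups overlapped, with 6 of 12 above the highest control and 4 of 8 controls below the lowest of the 12. *Cx3cr1* had a log2 fold change of 1.08 (SE 0.32, adjusted p = 0.0182), and 0.94 without control replicate 8 (adjusted p = 0.029), its lowest library. *Xcr1* had a log2 fold change of 0.16 (SE 0.50, adjusted p = 0.844), which turned to -0.01 without control replicate 6.

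The 4 atypical receptors were all tested and 1 rose. *Ackr4*, which scavenges Ccl19, Ccl21 and Ccl25, ran from 2.14 CPM (median 8.96) to 18.4 CPM in control and from 11.8 CPM (median 27.1) to 39.1 CPM in the other group. All 12 libraries labelled knockout were above the control median and 8 above the highest control, replicate 5. *Ackr4* had a log2 fold change of 1.38 (SE 0.31, adjusted p = 0.00483), and 1.25 without control replicate 8. Its exons share 479 bases (8.9%) with *Acad11* on the other strand, which was lower in the libraries labelled knockout (-0.63, SE 0.13, adjusted p = 0.00309).

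*Ackr3* ran from 44.2 CPM (median 47.9) to 76.7 CPM in control and from 27.3 CPM (median 50.4) to 180 CPM in the other group, with a log2 fold change of 0.39 (SE 0.30, adjusted p = 0.37). *Ackr2*, which degrades inflammatory CC chemokines, had one of 0.65 (SE 0.56, adjusted p = 0.422). Among the libraries labelled knockout the same 3 were highest for both genes, a choice made after the values were seen: replicates 4, 7 and 5 held 180, 152 and 106 CPM of *Ackr3* and 47.6, 35.5 and 21.5 CPM of *Ackr2*. Control replicate 6 was the highest control for both, at 76.7 CPM of *Ackr3* and 22.7 CPM of *Ackr2*, the latter above knockout replicate 5. *Ackr1*, an erythroid and venular scavenger, had a log2 fold change of 0.17 (SE 0.34, adjusted p = 0.755), and its exons share 361 bases (25.7%) with *Cadm3* on the same strand.

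**Figure D3:**
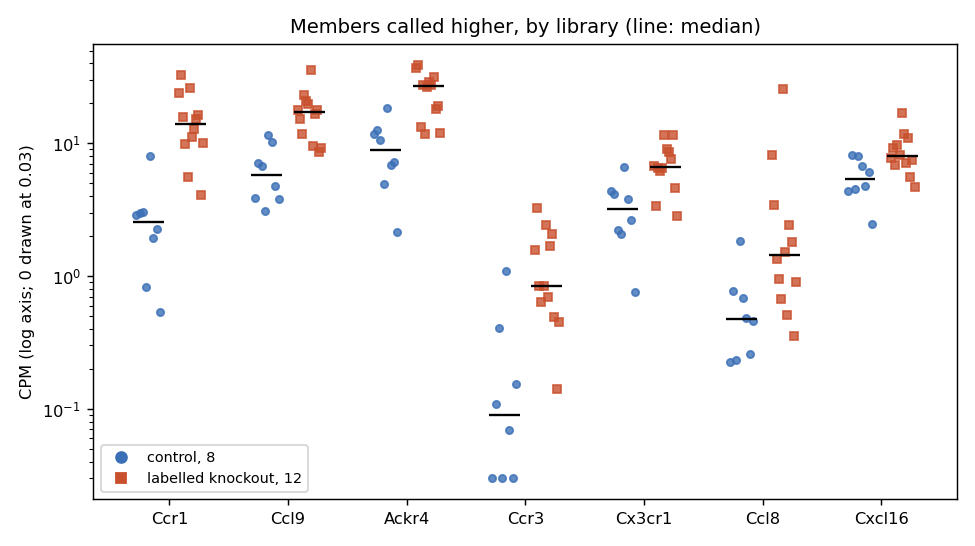
CPM (log axis, a value of 0 drawn at 0.03) of the 7 members called higher in each of the 8 control libraries (circles) and 12 libraries labelled knockout (squares), with the median as a line. The groups overlap for every gene, and *Ccl8* is carried furthest by 1 library at 25.8 CPM.

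**Figure D4:**
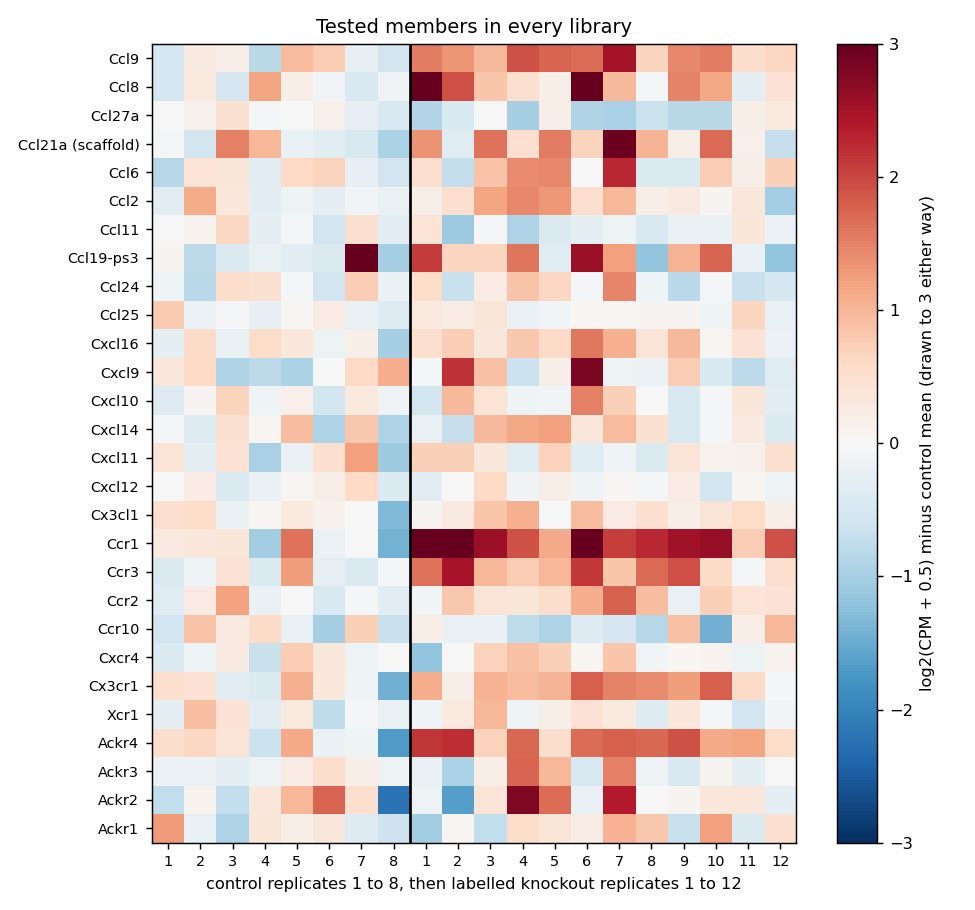
Level of 28 tested members in every library as log2(CPM + 0.5) minus the control mean of the gene, with members ordered by role and libraries in columns. *Ccr1* is raised in all 12 libraries labelled knockout, *Ackr2* and *Ackr3* in replicates 4, 5 and 7, and control replicate 8 is low for *Ccr1*, *Ackr4*, *Ackr2* and *Cx3cr1*.

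Ligands and receptors were then read as pairs. Of 37 textbook pairs listed among the members, 9 had both genes tested, and in 1 of these, *Ccl9* with *Ccr1*, both rose. The list was not complete for atypical receptors. It paired *Ackr3* with *Cxcl12* but held no pair for *Ackr4*, which rose while its ligand *Ccl25* did not pass. *Ccr3* rose while its ligands *Ccl11* and *Ccl24* did not pass, and *Cx3cr1* rose while *Cx3cl1* did not. *Ccl8* rose while *Ccr8* had 3 counts over all libraries, and *Cxcl16* rose while *Cxcr6* was below the filter.

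By position, the 2 CC ligand clusters of chromosome 11 each held 1 called gene. *Ccl8* was called among the 6 genes at chr11:82035571-82305690, where *Ccl2* and *Ccl11* were tested too, and *Ccl9* among the 5 at chr11:83525778-83664683, where *Ccl6* was tested too. In the receptor cluster of chromosome 9, *Ccr1* and *Ccr3* were called, and their neighbours *Ccr2* and *Xcr1* were not.

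The 40 members that were not tested had a mean of at most 0.693 CPM. *Ccl7*, a monocyte attractant beside *Ccl2*, was the one among them that DESeq2 called (2.07, adjusted p = 0.00543), at 0.221 CPM in control and 0.925 CPM in the other group. *Ccl3*, an inflammatory ligand of Ccr1, was called only by edgeR with no filter (2.88, adjusted p = 0.0395), at 0.0265 and 0.241 CPM. *Ccl5*, a T cell and platelet chemokine, and *Cxcl13*, the B cell attractant, were highest in knockout replicate 6 at 6.39 and 4.75 CPM. *Cxcr2*, the neutrophil receptor, had means of 0.146 and 0.876 CPM but medians of 0.109 and 0.102 CPM. Its highest library, knockout replicate 3 at 5.67 CPM, also had the highest neutrophil marker sum, 900 CPM, and knockout replicate 12 followed at 2.68 CPM of *Cxcr2*. The ligands of Cxcr2 among the members were below the filter: *Cxcl1* was at 0.323 and 0.317 CPM, *Cxcl2*, *Cxcl3* and *Cxcl5* were at 0.148 CPM or less in both groups, and *Cxcl15* had no count.

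Downstream of the receptors, 16 of 30 tested genes of a list for chemokine receptor signalling were higher and 0 lower, against 12% and 11% of all tested genes. The largest log2 fold changes were those of *Rac2*, a small GTPase of haematopoietic cells (2.27, SE 0.42, adjusted p = 0.00164), *Plcb2*, a phospholipase activated by G proteins (2.16, SE 0.46, adjusted p = 0.00331), and *Pik3cg*, the phosphoinositide 3-kinase of leukocyte chemotaxis (1.47, SE 0.36, adjusted p = 0.00688). At an unadjusted p under 0.05, 18 of the list were higher and 0 lower by edgeR, and DESeq2 called 17 higher and 0 lower. Of 21 tested genes for leukocyte adhesion, 10 were higher and 0 lower, against the same 12% and 11%. They were led by the integrin chain *Itgax* (1.91, SE 0.33, adjusted p = 0.00129), the selectin ligand *Selplg* (1.81, SE 0.33, adjusted p = 0.00147) and the integrin chain *Itgb7* (1.68, SE 0.38, adjusted p = 0.00495). At an unadjusted p under 0.05, 12 were higher and 0 lower by edgeR, and DESeq2 called 11 higher and 0 lower. The median was 0.44 for the first list and 0.40 for the second, against -0.02 over all tested genes. Both lists, and the one that follows, were chosen with earlier results of these data known. *Itgax* also stood in the dendritic cell list, and the part of cell content in these counts was not tested.

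Of 16 tested genes for other attractants and their receptors, 6 were higher and 2 lower, beside the same shares. *Gpr183*, an oxysterol receptor (1.68, SE 0.40, adjusted p = 0.00621), *Cmtm3*, of a chemokine-like family (0.96, SE 0.21, adjusted p = 0.00403), and *C5ar1*, the complement C5a receptor (1.02, SE 0.37, adjusted p = 0.0496), were higher, the last in only 7 of 20 fits with 1 library left out. *Ccrl2*, a receptor-like protein that presents chemerin to migrating cells, fell by 0.79 on the log2 scale (SE 0.18, adjusted p = 0.00564), with a mean of 7.94 CPM (SD 2.60) over 8 controls and 4.58 CPM (SD 1.08) over the other 12, and 0 of 12 libraries labelled knockout exceeded the control median. *Pitpnm3*, a phosphatidylinositol transfer protein also described as a chemokine receptor, fell by 0.59 (SE 0.17, adjusted p = 0.0169).

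Since marker levels differed between the groups, the relation of the members to marker lists was computed within each group, an addition made after the values were seen. It covered the 19 members chosen for their p or their level per kb and the osteoclast, macrophage, mast cell and synovial fibroblast lists, 152 relations in all, each with 100000 resamples over the 12 libraries labelled knockout or all 40320 pairings of the 8 controls. In the 12 libraries, 5 relations passed 0.05 after adjustment by both coefficients, and in control none passed by both. *Ccr1* followed the osteoclast list (r = 0.951, permutation p = 1e-05, the smallest possible, adjusted 0.00076, and Spearman's coefficient = 0.951, permutation p = 2e-05, adjusted 0.00152), with r = 0.926 after the 2 libraries farthest in the marker level were left out. In control r was 0.957 (exact p = 0.000744, adjusted 0.0283) and Spearman's coefficient was 0.833 (exact p = 0.0154, adjusted 0.142). The relation in control was not particular to osteoclast genes, as r of *Ccr1* with the macrophage list was 0.959 there (exact p = 0.00196, adjusted 0.0473, and Spearman's coefficient 0.738, exact p = 0.0458, adjusted 0.258). Over the 12 libraries labelled knockout that r was 0.238 (permutation p = 0.456, adjusted 0.648). There the r of *Ccr1* was 0.611 with the mast cell list (adjusted permutation p = 0.163) and -0.402 with the synovial fibroblast list (adjusted 0.417). In control it was 0.739 with the mast cell list (exact adjusted p = 0.178). With the synovial fibroblast list in control r was 0.782 (adjusted 0.134) and Spearman's coefficient 0.952 (adjusted 0.0289), above that of the osteoclast list.

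*Ccl9* instead followed the macrophage list (r = 0.948, permutation p = 1e-05, adjusted 0.00076, and Spearman's coefficient = 0.972, permutation p = 1e-05, adjusted 0.00152), with r = 0.930 after the 2 farthest libraries were left out, and in control r with it was 0.82 (exact p = 0.00677, adjusted 0.0731) and Spearman's coefficient 0.952 (exact p = 0.00114, adjusted 0.0289). Its r with the osteoclast list over the 12 was 0.0942 (permutation p = 0.77, adjusted 0.843). *Ccr3* followed the mast cell list (r = 0.858, permutation p = 0.00043, adjusted 0.0218, and Spearman's coefficient = 0.895, permutation p = 0.00019, adjusted 0.00963), with r = 0.828 after the 2 farthest were left out. In control it did not: r was -0.05 (exact p = 0.902, adjusted 0.932) and Spearman's coefficient -0.27 (exact p = 0.528, adjusted 0.762). Over the 12 the osteoclast list came close behind for *Ccr3*: r = 0.766 (adjusted permutation p = 0.0555), Spearman's coefficient 0.783 (adjusted 0.06). Dropping the 2 libraries farthest in osteoclast level raised that r to 0.844, above the 0.828 of the mast cell list. The relation of *Ccr3* was thus not particular to mast cell genes. The other 2 relations that passed by both coefficients were *Ackr4* with the mast cell list (r = 0.795, permutation p = 0.00289, adjusted 0.0488, and Spearman's coefficient = 0.818, permutation p = 0.00188, adjusted 0.0408), with r = 0.796 after the 2 farthest libraries were left out, and *Ccl8* with the osteoclast list (r = 0.768, permutation p = 0.00249, adjusted 0.0473, and Spearman's coefficient = 0.853, permutation p = 0.00088, adjusted 0.0289), with r = 0.842. In control r was 0.83 for *Ackr4* with the mast cell list (exact p = 0.0149, adjusted 0.113, and Spearman's coefficient 0.405, exact p = 0.327, adjusted 0.59) and -0.21 for *Ccl8* with the osteoclast list (exact p = 0.612, adjusted 0.727, and Spearman's coefficient 0.024, exact p = 0.977, adjusted 0.983). For *Ackr4* the relation in control was not particular to mast cell genes. Its r was 0.910 with the macrophage list (exact adjusted p = 0.0473, Spearman's coefficient 0.643, adjusted 0.344). With the osteoclast list it was 0.872 (adjusted 0.0731, Spearman's coefficient 0.929, adjusted 0.0424), and 0.875 with the synovial fibroblast list (adjusted 0.0759). Over the 12 its r was 0.708 with the osteoclast list (adjusted 0.0953), 0.395 with the macrophage list and 0.178 with the fibroblast list. The difference between the groups in these relations was not tested. For *Cx3cr1* and *Cxcl16* no relation passed by both coefficients in either group. Whether the marker levels account for the differences between groups was not tested.

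**Figure D5:**
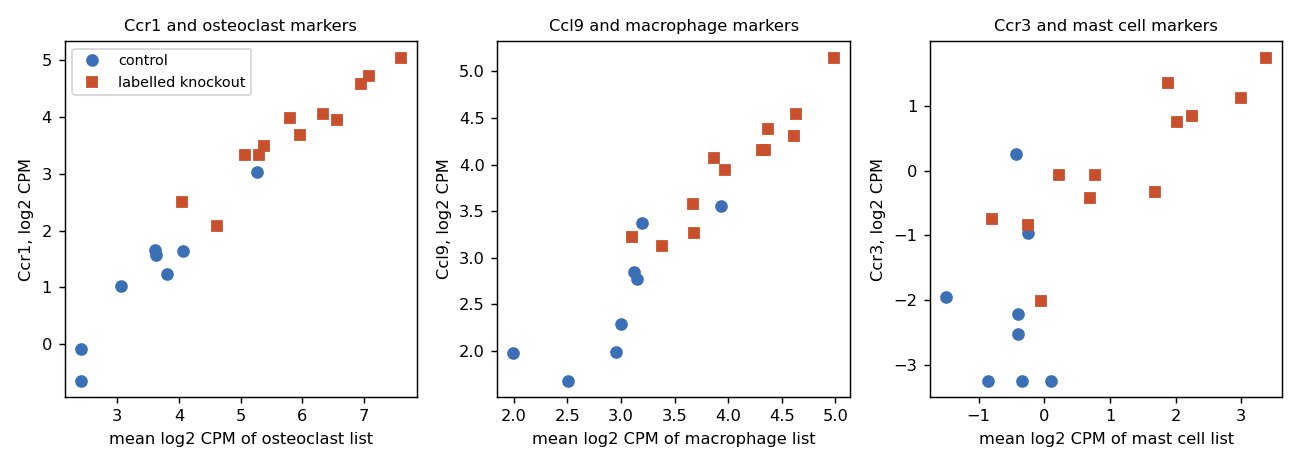
Log2 CPM of *Ccr1*, *Ccl9* and *Ccr3* against the mean log2 CPM of the osteoclast, macrophage and mast cell lists in the 8 control libraries (circles) and the 12 libraries labelled knockout (squares). Within the 12, r was 0.951, 0.948 and 0.858.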

How the data were processed

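Bulk RNA of the condylar heads was sequenced, and the authors deposited raw counts per Ensembl gene, made from paired-end reads with featureCounts 1.5.0-p3 on the mouse build mm10. The aligner, strand setting and handling of reads with several positions are not given in the sources used here. The sample titles gave the group and replicate number, and every count column had a sample. Symbols and coordinates came from GENCODE M21 on the same build (54495 of 54532 identifiers matched). Totals were 11153820 to 27045668 counts, and no 2 libraries held the same counts (smallest chi-square per degree of freedom 32.9 over 190 pairs). Limits set by counts cover counting error only.

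The 8 control libraries and the 12 libraries labelled knockout were compared in R 4.3.3 with edgeR 4.0.16: filterByExpr, TMM scaling, the two-sided quasi-likelihood F-test over all genes and Benjamini-Hochberg adjustment at 0.05. CPM values use TMM-scaled totals, and log2 CPM has a prior count of 2. *Loxl2* and marker relations were tested by permutation. The procedure was tested on simulated data. The members and gene lists were chosen with earlier results of these data known. Members were named if tested, with ranges for the 14 smallest p-values and the 6 highest levels per kb, and each further list by its 3 called genes with the largest fold change in each direction. Alternatives were other scalings, DESeq2 1.42.0 (the test of the study), other filters, a replicate block, a Y-linked covariate and omission of each library. A fit of the block's 16 libraries with no block was chosen after seeing the data. RefSeq promoters matched 45 of the members. Protein sequences were not used here, and the values of 1 tested member are not reported here.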

Additional observations from a re-analysis of the deposited data

Results flagged for a closer look

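Single control libraries lay far from the other 7 in 3 of the 29 tested members, by a test of the gap to the nearest library against the whole range. Chance gives such a gap in about 1 in 20 groups. *Ccr2* was at 7.06 CPM in control replicate 3 and at 1.86 to 3.39 CPM in the others. *Cx3cl1* was at 5.81 CPM in control replicate 8, the library with few chondrocyte transcripts, and at 13.2 to 22.7 CPM in the others. *Ccl19-ps3* was at 9.37 CPM in control replicate 7 and at 0.0765 to 0.71 CPM in the others.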

How the results depend on the processing

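With 1 library left out, 6 to 9 members were called higher and 0 to 1 lower, 2551 to 4181 genes were called in all, 31 to 50 marker genes and 28 to 36 signalling, adhesion and attractant genes. DESeq2, no filter, a filter at 0.5 CPM and the 16 libraries without the block each gave 8 members higher. These counts do not compare directly, as the fits tested different numbers of genes and members. Of all genes tested, 11.6% of 18931 were higher by DESeq2, 4.86% of 34192 with no filter and 12% of 16285 with the filter at 0.5 CPM. That share was not counted for the 16 libraries without the block. *Ccl27a* was the 1 member called lower with the replicate block (-0.62, adjusted p = 0.0397), in those 16 libraries without it (-0.57, adjusted p = 0.0495) and without knockout replicate 12 (-0.53). In the 16 libraries *Ccl2* was called higher (1.20, adjusted p = 0.0465). Equal replicate numbers did not pair the samples: r between them was -0.36 to 0.17, over 0.1 in 2 of 8 pairs, and 0 samples correlated best with their own number. With the block, 6 members were higher, *Cx3cr1* (1.23, adjusted p = 0.0566) and *Ccl8* (2.14, adjusted p = 0.102) were not called, and 1786 of all genes and 26 marker genes were called, against 3280 and 37 in the same 16 libraries without the block and 3673 and 43 in all 20. With no filter *Cxcl16* was not called (0.67, adjusted p = 0.0685). *Cxcl12* reversed to 0.093 when scaled by totals (all genes then had a median of 0.12), to 0.020 with the block, 0.0093 in the 16 libraries, and 0.014, 0.0031, 0.074 and 0.014 without control replicates 2, 6 and 7 and knockout replicate 10 (range -0.095 to 0.074). *Cxcl11* reversed to -0.039 and -0.041 without control replicates 4 and 8 (range to 0.38), *Xcr1* to -0.011 without control replicate 6 (range to 0.58) and *Ccl24* to -0.060 without knockout replicate 7 (range to 0.41). The *Loxl2* difference was 0.51 to 0.93 with 1 library left out. *Ccr1*, *Ccl9*, *Ackr4* and *Ccr3* were called under every alternative. The causes of these shifts were not tested, and at 3 counts per 0.111 to 0.269 CPM the 40 untested members lie near the limit of depth.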
